A study of Homo sapiens with 31 samples.

Results

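The genes described here are 7 of 19221 genes measured by RNA sequencing in 31 libraries of cell lines studied as ovarian cancer. They were chosen by symbol and with their levels in these libraries known, so their levels and contrasts are given as a description and without a p-value. CGA encodes the alpha subunit shared by chorionic gonadotropin and the pituitary glycoprotein hormones, and CGB5 and CGB8 encode the beta subunit of chorionic gonadotropin. ALPL encodes the tissue-nonspecific alkaline phosphatase of bone and liver. ALPP encodes the placental enzyme, ALPPL2 (ALPG in current annotations) the germ cell enzyme and ALPI the intestinal enzyme.

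The study asked how the transcription factor C/EBPβ, encoded by CEBPB, affects the response of ovarian cancer cells to the PARP inhibitor olaparib. C13* was used as a cisplatin-resistant ovarian cancer line that is proficient in homologous recombination. It was transduced with an shRNA lentivirus that was a control (C13* shCON, n = 7) or aimed at CEBPB (C13* shCEBPB, n = 8). A2780 is an olaparib-sensitive ovarian cancer line (n = 8), and A2780 OlaR (n = 8) is its olaparib-resistant strain, selected in culture under rising concentrations of olaparib. The study concedes that the use of C13* is open to question given its origin. It also states that A2780 was reported to be an unlikely line of high-grade serous ovarian cancer. Cells of both lines were grown in RPMI-1640 with fetal bovine serum. Whether the transduced cells or the resistant strain were single clones is not given in the sources used here. Levels are FPKM, fragments scaled by the length of the gene and by the number of mapped fragments of the library. The study calls the libraries of a group biological replicates, and the sources do not say whether they came from separate cultures, so the spread between them may be partly technical.

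These hormones are dimers of the common alpha subunit and 1 beta subunit that gives the hormone its identity. Syncytiotrophoblast of the placenta makes chorionic gonadotropin, while gonadotropes and thyrotropes of the pituitary make the other hormones of the family. The alpha chain can also be released free of any beta chain. Alkaline phosphatases are held on the outer cell surface by a glycosylphosphatidylinositol (GPI) anchor, where they remove phosphate from many substrates. The tissue-nonspecific enzyme degrades pyrophosphate during mineralisation, and its gene lies apart from the cluster of the tissue-restricted genes. Placental, germ cell and intestinal alkaline phosphatase and free hormone subunits are known as products that tumors can make outside their normal tissue.

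The groups did not stand to each other as their labels would place them. The mean absolute difference in log2(FPKM + 1) over all genes was 0.120 between C13* shCON and A2780 OlaR, which carry the names of different lines. It was 0.605 between C13* shCON and C13* shCEBPB and 0.715 between A2780 and A2780 OlaR. Only 69 of 19221 genes differed by 1 or more on that scale between C13* shCON and A2780 OlaR, against 3620 and 4544 genes within the labelled lines. Each of the 31 libraries was nearest to a library of its own group, and no pair of libraries was identical. The cell line label of replicate 1 of C13* shCON reads A2780 while its title reads C13*. The line of origin of each group was not tested, so each level below belongs to a library group as labelled. CEBPB itself was at 85.8 ± 9.93 FPKM (SD, n = 7) in C13* shCON and 47.1 ± 9.05 (SD, n = 8) in C13* shCEBPB, with no overlap between the groups. Its log2 fold change was -0.87 (SE 0.11, adjusted p = 1.42e-06, limma with Benjamini-Hochberg adjustment). In A2780 and A2780 OlaR it was at 99.7 ± 7.63 and 112 ± 11.6 FPKM (SD, n = 8 each), and these ranges overlapped. Relative depth, read from the steps of the lowest FPKM, lay between 0.865 and 1.23 of the typical library.

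CGA lies on the minus strand of chromosome 6 at chr6:87085498-87095106 (hg38, GENCODE 44) and has 4 exons. ALPP, ALPPL2 and ALPI lie in this order on the plus strand of chromosome 2, at chr2:232378724-232382889, chr2:232406844-232410714 and chr2:232456125-232460753, with 11 exons each. The stretches between them are 23954 and 45410 bp long. The 150 bases before the RefSeq transcription starts (GRCh38.p14, 5′ to 3′ on the strand of the gene) are shown because CGA carries a repeated element there and because the genes of the cluster resemble each other there and yet differ in level. Capitals mark the cAMP response element TGACGTCA in CGA and the TATA-like box TTTAAA in the alkaline phosphatases. The coordinates of the 4 stretches are chr6:87095107-87095256, chr2:232378601-232378750, chr2:232406694-232406843 and chr2:232456003-232456152.
CGA: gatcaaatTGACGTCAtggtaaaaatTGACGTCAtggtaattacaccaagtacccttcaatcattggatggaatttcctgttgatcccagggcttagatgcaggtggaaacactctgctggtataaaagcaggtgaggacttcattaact
ALPP: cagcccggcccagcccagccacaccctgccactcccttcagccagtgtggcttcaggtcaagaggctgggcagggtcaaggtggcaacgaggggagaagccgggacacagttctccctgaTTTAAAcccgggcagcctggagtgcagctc
ALPPL2: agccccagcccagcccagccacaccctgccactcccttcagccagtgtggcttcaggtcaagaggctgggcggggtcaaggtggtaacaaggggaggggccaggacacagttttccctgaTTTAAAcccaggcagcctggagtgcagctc
ALPI: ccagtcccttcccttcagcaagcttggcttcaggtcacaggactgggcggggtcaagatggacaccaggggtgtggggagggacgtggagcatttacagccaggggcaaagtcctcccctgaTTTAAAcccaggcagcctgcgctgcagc

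Both strands of the windows from 250 bases before to 50 bases after the start were searched, and both marked motifs read the same on either strand. CGA held TGACGTCA at positions -142 to -135 and -124 to -117 from the start. Of 35116 promoter windows of the same length, 1.85% held this motif and 21 (0.0598%) held it more than once. TTTAAA stood at -30 to -25 in ALPP and ALPPL2 and at -28 to -23 in ALPI, and 12.2% of all windows held it. A C/EBP core, searched as TTGCNNAA, was found once among the members, in ALPI at -137 to -130 on the minus strand, and in 10.5% of all windows. ALPP and ALPPL2 had 88.5% identical bases over the aligned part of the 250 bases before the start, against 71.5% for ALPP and ALPI and 73.6% for ALPPL2 and ALPI. A match is a description of letters and not of a bound site.

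CGA and ALPL were the members with the highest levels. CGA was listed at 0 in all 7 C13* shCON libraries and all 8 A2780 OlaR libraries. In libraries 1 to 8 of C13* shCEBPB it stood at 734, 648, 723, 563, 387, 394, 488 and 552 FPKM, a mean of 561 ± 135 (SD, n = 8). Every C13* shCEBPB library was therefore far above every other library. In A2780 it was low but listed above 0 in each library, from 0.0682 to 0.407 FPKM, with a mean of 0.195 ± 0.115 (SD, n = 8). By mean FPKM CGA ranked 107 of 19221 genes in C13* shCEBPB and 13138 in A2780. No fold change is given against groups at 0. In such bulk libraries, more cells with CGA RNA and more CGA RNA per cell cannot be told apart, which holds for each gene below. The A2780 range lay between those of C13* shCEBPB and the 2 groups at 0 without overlapping either.

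**Figure D1:**
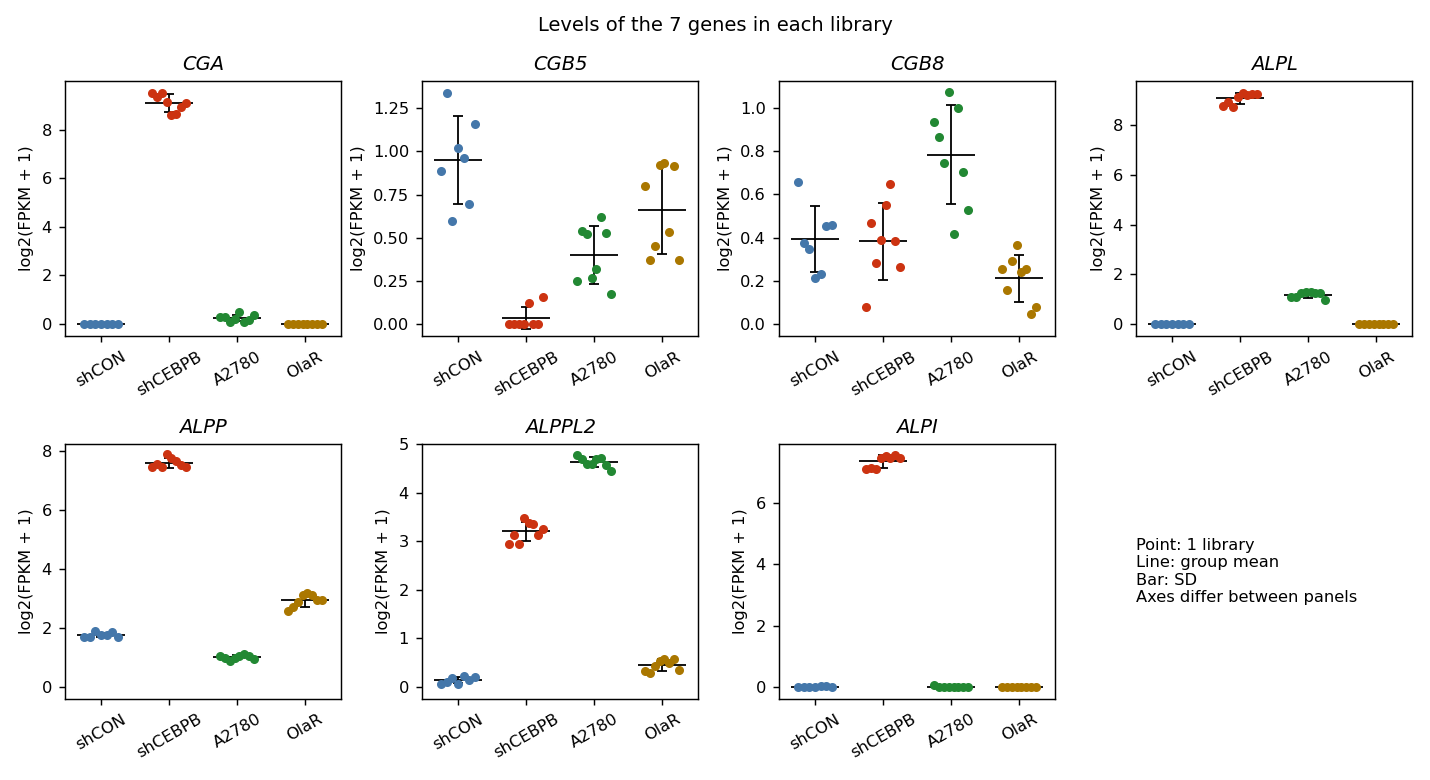
Levels of the 7 genes in each library as log2(FPKM + 1), by group (shCON and shCEBPB are C13* libraries, OlaR is A2780 OlaR), with a scale of its own for each gene. Points are libraries, lines the mean and bars the SD on the log2 scale; CGA, ALPL, ALPP and ALPI were highest in shCEBPB, ALPPL2 and CGB8 in A2780 and CGB5 in shCON.

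ALPL lies on the plus strand at chr1:21509397-21578410 (hg38, 12 exons), on another chromosome than both CGA and the other phosphatases. It had the same listing at 0 as CGA, in all C13* shCON and all A2780 OlaR libraries. In libraries 1 to 8 of C13* shCEBPB ALPL stood at 442, 492, 421, 555, 635, 602, 618 and 606 FPKM, a mean of 546 ± 84.0 (SD, n = 8), which ranked 111 of 19221 genes. In A2780 it lay between 0.933 and 1.46 FPKM, a mean of 1.28 ± 0.185 (SD, n = 8). ALPL thus had the same order of groups as CGA, and its A2780 mean, per length, was above that of CGA. Its exons share 25 bases with another gene on the same strand. Over the whole table, 4 genes were listed at 0 in every C13* shCON library and at 100 FPKM or more in every C13* shCEBPB library. Of these, CGA, ALPL and PRSS21, a GPI-anchored serine protease of testis, were also listed at 0 in every A2780 OlaR library, and PRSS21 had a mean of 202 FPKM in C13* shCEBPB.

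ALPI was the member with the least signal outside a single group. It was listed at 0 in 5 of 7 C13* shCON libraries, with a highest value of 0.0134 FPKM, in 7 of 8 A2780 libraries, with 0.0436 FPKM in replicate 1, and in all 8 A2780 OlaR libraries. In libraries 1 to 8 of C13* shCEBPB it stood at 137, 140, 138, 178, 184, 176, 187 and 177 FPKM, a mean of 165 ± 22.1 (SD, n = 8) and a rank of 376 of 19221. The 3 groups near 0 overlapped each other, and none overlapped C13* shCEBPB.

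ALPP was above 0 in every library and separated all 4 groups. In libraries 1 to 8 of C13* shCEBPB it stood at 175, 188, 175, 238, 218, 202, 182 and 176 FPKM, a mean of 194 ± 23.4 (SD, n = 8). The next group was A2780 OlaR, with a lowest value of 4.90, a median of 6.76 and a highest value of 8.09 FPKM, followed by C13* shCON with 2.22, 2.36 and 2.68 FPKM and by A2780 with 0.851, 1.02 and 1.18 FPKM. No pair of neighbouring groups overlapped in ALPP, so this placental gene had 4 distinct levels. Its ratio of means was 81.2 for C13* shCEBPB over C13* shCON and 6.69 for A2780 OlaR over A2780. As log2(FPKM + 1), which shrinks differences between low values, ALPP differed by 5.84 (SE 0.07) in C13* and by 1.94 (SE 0.08) in A2780.

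ALPPL2, the gene most like ALPP in sequence, had another order of groups. It was highest in A2780, with a lowest value of 20.9, a median of 24.2 and a highest value of 26.4 FPKM. In libraries 1 to 8 of C13* shCEBPB it stood at 6.71, 7.71, 6.66, 10.2, 9.43, 9.30, 7.79 and 8.54 FPKM, a mean of 8.29 ± 1.30 (SD, n = 8). A2780 OlaR followed with 0.217 to 0.496 FPKM and C13* shCON with 0.0412 to 0.168 FPKM, and no neighbouring ranges overlapped. The germ cell gene was therefore highest where the placental gene was lowest. Its ratio of means was 81.9 for C13* shCEBPB over C13* shCON and 65.6 for A2780 over A2780 OlaR. The differences of ALPPL2 on the log2(FPKM + 1) scale were 3.07 (SE 0.08) in C13* and -4.20 (SE 0.06) in A2780. Since its C13* shCON level was far below 1 FPKM, the C13* difference depended on the added constant and was 5.41 with a constant of 0.1 and 6.35 with 0.01.

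The ratio of ALPP to ALPPL2 within a library sums up the contrast between both genes. It ranged from 20.7 to 26.3 in C13* shCEBPB, from 14.0 to 25.4 in A2780 OlaR and from 14.1 to 55.0 in C13* shCON. In A2780 it ranged from 0.0369 to 0.0471. The A2780 libraries were thus the only ones in which ALPPL2 exceeded ALPP. ALPP and ALPPL2 share 97.8% of aligned coding bases, and 7.64% of the 150-base windows of the ALPP transcript (8.49% for ALPPL2) also occur in the other gene. Reads from these windows could be assigned to either gene, so a low level of one beside a high level of the other is uncertain. In C13* shCEBPB ALPPL2 made up 0.907% of the FPKM of the 4 phosphatases, beside 21.4% for ALPP, and in A2780 ALPP made up 3.83%, beside 91.3% for ALPPL2. ALPP also shares 631 exonic bases with a gene on the opposite strand, and whether counting used the strand is not given in the sources used here. ALPI has 89.7% coding identity with ALPP and 67.8% with ALPL, and no 150-base window of ALPI, ALPL or CGA occurs in another gene.

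The sum of the 4 phosphatases separated all groups, in another order than ALPP. It was 914 ± 119 FPKM (SD, n = 8) in C13* shCEBPB, 26.3 ± 1.92 (SD, n = 8) in A2780, 7.11 ± 1.22 (SD, n = 8) in A2780 OlaR and 2.50 ± 0.201 (SD, n = 7) in C13* shCON. The makeup of that sum differed as well. In C13* shCEBPB 59.7% of it came from ALPL, 21.4% from ALPP and 18.0% from ALPI. In C13* shCON 95.9% and in A2780 OlaR 94.9% came from ALPP, while in A2780 91.3% came from ALPPL2 and 4.87% from ALPL. Each group that was high in phosphatases was thus led by another gene, the tissue-nonspecific one in C13* shCEBPB and the germ cell one in A2780.

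Within C13* shCEBPB the members split by the number in the library code. CGA had a mean of 702 FPKM in libraries 1 to 3 and 477 in libraries 4 to 8, without overlap. ALPL went the other way, with 451 against 603 FPKM, as did ALPI with 138 against 180 FPKM and ALPPL2 with 7.03 against 9.05 FPKM, also without overlap. ALPP had 179 against 203 FPKM with overlapping ranges. CEBPB itself had 37.8 against 52.8 FPKM, without overlap. Such a split was common, since 53.4% of the genes with a mean of at least 1 FPKM in C13* shCEBPB did not overlap between these libraries, against 57.2% in A2780 OlaR, 20.7% in A2780 and 4.77% in C13* shCON. In A2780 OlaR ALPP had 5.61 FPKM in libraries 1 to 3 and 7.43 in libraries 4 to 8, again without overlap. What the number in the code stands for is not given, and its part in these levels was not tested. The order of the 4 groups was the same in both ranges of libraries for CGA, ALPL, ALPP and ALPPL2.

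**Figure D2:**
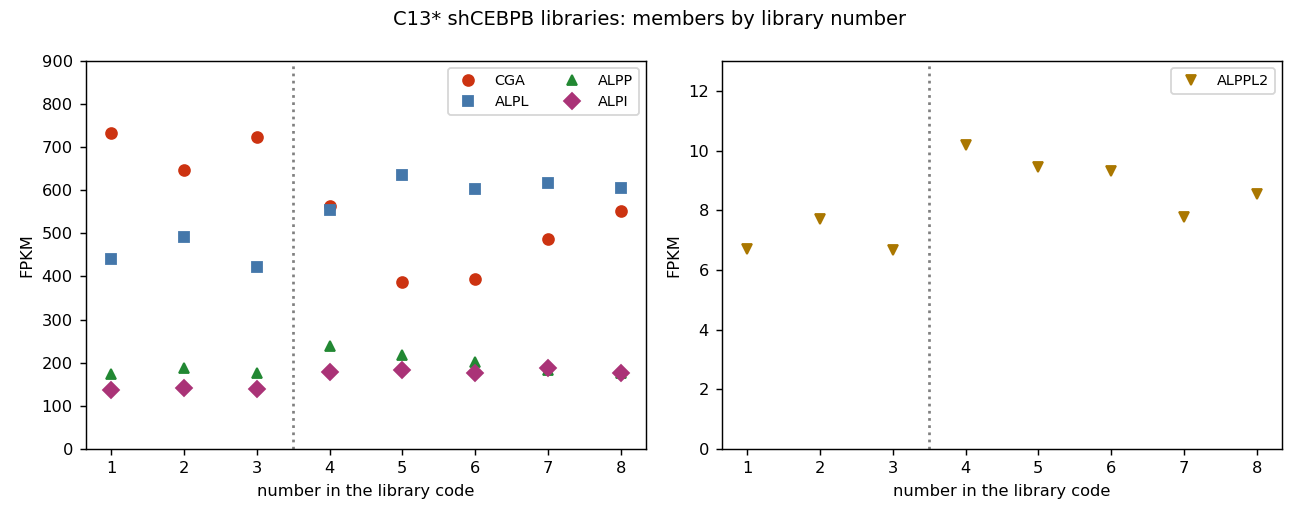
FPKM of CGA, ALPL, ALPP and ALPI (left) and of ALPPL2 (right) in the 8 C13* shCEBPB libraries, against the number in the library code, with a dotted line between libraries 3 and 4. CGA was highest in libraries 1 to 3 (648 to 734 FPKM), where ALPL, ALPI and ALPPL2 were lowest.

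The beta subunits did not accompany the alpha subunit. CGB5 and CGB8 lie on opposite strands of chromosome 19 at chr19:49043848-49045311 and chr19:49047638-49049111 (hg38), 2326 bp apart, with 3 exons each. CGB5 was highest in C13* shCON, with a lowest value of 0.514, a median of 0.951 and a highest value of 1.53 FPKM, and its mean was 0.960 ± 0.348 (SD, n = 7). A2780 OlaR followed with a mean of 0.604 ± 0.281 and A2780 with 0.328 ± 0.153 FPKM (SD, n = 8 each), and neighbouring ranges overlapped. In C13* shCEBPB, where CGA was highest, CGB5 was listed at 0 in 6 of 8 libraries and at 0.0878 and 0.116 FPKM in libraries 5 and 8, below every library of the other groups.

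CGB8 was low everywhere. Its mean was 0.739 ± 0.269 FPKM in A2780 (SD, n = 8), 0.318 ± 0.143 in C13* shCON (SD, n = 7), 0.313 ± 0.161 in C13* shCEBPB (SD, n = 8) and 0.161 ± 0.0858 in A2780 OlaR (SD, n = 8). Each of these ranges overlapped that of its neighbour in the order, while A2780 and A2780 OlaR did not overlap each other. The coding sequences of CGB5 and CGB8 are identical, CGB3 shares 99.8% and CGB7 99.0% of their coding bases, and 60.6% of the 150-base windows of CGB5 and 51.9% of those of CGB8 occur in another gene. The levels of single CGB genes are therefore uncertain, and their sum is given as well. Summed over 6 CGB genes (CGB1, CGB2, CGB3, CGB5, CGB7 and CGB8), the level was 8.99 ± 1.26 FPKM in A2780 (SD, n = 8), 5.69 ± 0.636 in C13* shCON (SD, n = 7), 3.21 ± 0.590 in A2780 OlaR (SD, n = 8) and 0.493 ± 0.233 in C13* shCEBPB (SD, n = 8). The group with 561 FPKM of alpha subunit was hence the group with the least beta subunit.

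CGB7 made up 70.6% of the summed CGB FPKM in C13* shCON, 74.3% in A2780, 60.3% in A2780 OlaR and 30.1% in C13* shCEBPB, where CGB8 had the higher mean. It fell from 4.04 ± 0.740 FPKM in C13* shCON to 0.151 ± 0.152 in C13* shCEBPB, a log2 fold change of -2.13 (SE 0.09). It also fell from 6.72 ± 1.25 FPKM in A2780 to 1.94 ± 0.478 in A2780 OlaR, by 1.39 on the log2 scale (SE 0.11, limma adjusted p = 5.02e-10). LHB, the beta subunit of luteinizing hormone, fell from 4.86 ± 1.52 FPKM in A2780 to 0.0522 ± 0.114 in A2780 OlaR. The difference of LHB in log2(FPKM + 1) was -2.44 (SE 0.13) and was likewise shrunk by the added constant. LHB was at 0.0672 and 0.0912 FPKM in C13* shCON and C13* shCEBPB. CGB1, CGB2 and CGB3 had means under 1 FPKM in every group. FSHB and TSHB, the beta subunits of follicle-stimulating and thyroid-stimulating hormone, and the receptor gene FSHR were listed at 0 in every library. GPHA2 and GPHB5, the subunits of thyrostimulin, which holds no CGA product, had group means of at most 0.207 and 0.0131 FPKM.

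**Figure D3:**
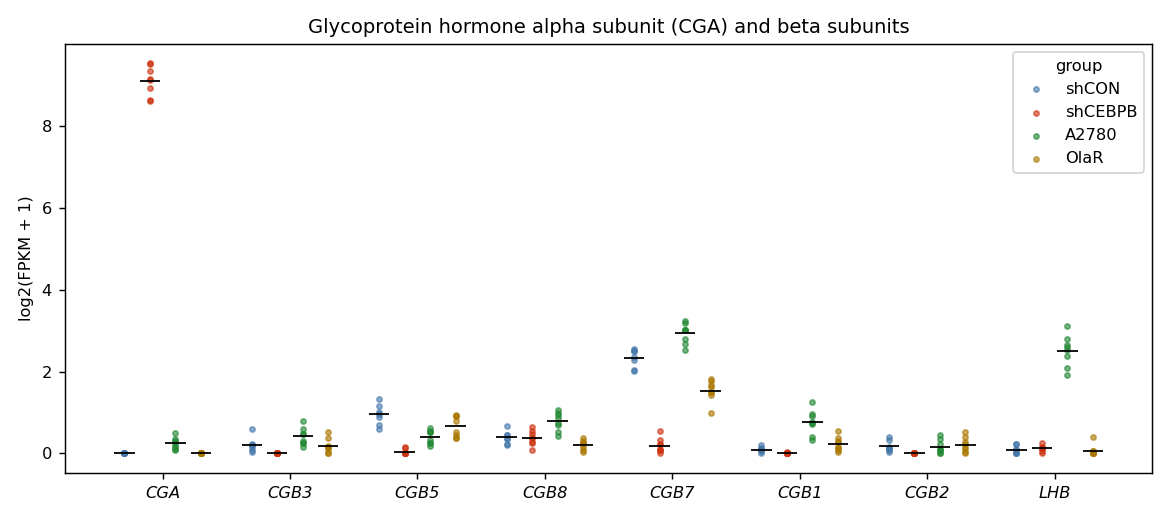
CGA and the measured beta subunit genes as log2(FPKM + 1), with each point a library, black lines the group means and colors the groups (shCON and shCEBPB are C13* libraries, OlaR is A2780 OlaR). CGA stands alone near 9 in shCEBPB, while CGB7 and LHB are highest in A2780 and CGB5 in shCON.

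A gene was tested where it reached 1 FPKM in at least 7 libraries in C13* and 8 in A2780, the size of the smaller group, which 5 of the 7 members did in C13* and 2 in A2780. CGA, ALPL, ALPPL2 and ALPI passed in C13* through C13* shCEBPB alone, and ALPPL2 and ALPP passed in A2780 through A2780 and A2780 OlaR, respectively. ALPL lay just outside in A2780 with 7 libraries of at least 1 FPKM, and CGB5 reached 1 FPKM in 3 C13* libraries. Among other genes, CGB7 in C13*, LHB in A2780 and the neighbouring gene EFHD1 in both also passed through 1 group alone. So did further genes of the lists below, such as PSG4, PEG10, CDX2, RUNX2, ANPEP and PDPN in C13*. In A2780 these included S100P, ADAM12, CDX2, RUNX2 and UTF1. The filter fixed the direction of such genes, which still count among the genes called. Their differences and those of the members are given without a p-value. Every log2 fold change is a difference of log2(FPKM + 1), which shrinks differences between low values. With 84.7% of tested genes called in C13* (38.9% higher and 45.7% lower in C13* shCEBPB) and 89.8% in A2780 (40.1% higher and 49.7% lower in A2780 OlaR), a call by itself sets a gene little apart. The ranges of the 2 groups did not overlap for 66.0% and 74.1% of tested genes.

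Related genes were taken from 8 lists. Without the list of ovarian carcinoma markers, these held 159 genes in all, of which 158 were measured. The tested genes counted here are from this set. In C13*, 48 of 86 tested genes were higher and 32 lower in C13* shCEBPB, or 93.0% called. In A2780, 35 of 81 were higher and 40 lower in A2780 OlaR, or 92.6%. Over all tested genes, 84.7% were called in C13* and 89.8% in A2780. By direction, 60.0% of the called related genes were higher in C13* shCEBPB, against 46.0% of all called genes. In A2780 OlaR 46.7% were higher, against 44.7% of all called genes. The lists were not tested as sets and are described by their members.

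Among regulators of CGA transcription, 11 of 18 tested genes were higher and 7 lower in C13* shCEBPB, and 9 of 17 were higher and 7 lower in A2780 OlaR. CREM, whose products bind cAMP response elements such as those shown for CGA, rose from 4.20 ± 0.404 FPKM in C13* shCON to 53.0 ± 3.80 in C13* shCEBPB (log2 fold change 3.38, limma adjusted p = 1.45e-19). It was higher still in A2780, with 138 ± 5.96 FPKM, and fell to 4.41 ± 0.332 in A2780 OlaR (log2 fold change -4.68, limma adjusted p = 1.30e-25). CREM was high in the 2 groups in which CGA was listed above 0, and highest where CGA was low. C13* shCON and A2780 OlaR differed by 1 or more in only 69 of 19221 genes, so levels shared by them set a gene little apart. A part of CREM in the level of CGA was not tested. FOS, a subunit of AP-1, rose from 12.01 to 132 FPKM in C13* shCEBPB (log2 fold change 3.35, limma adjusted p = 2.99e-19). GATA2, a GATA factor of pituitary and trophoblast, rose from 5.57 to 41.3 FPKM (log2 fold change 2.67, limma adjusted p = 4.46e-15). CREB1, which also binds cAMP response elements, fell by 1.18 on the log2 scale in C13* (limma adjusted p = 4.02e-12) and differed by 0.09 in A2780 (limma adjusted p = 0.165), and was picked after its values were seen. TFAP2C, an AP-2 factor of trophoblast and germ cells, fell from 34.2 to 9.47 FPKM in C13* and rose from 2.04 to 35.7 in A2780 OlaR. ETS2 likewise fell from 67.6 to 22.4 FPKM in C13* and rose from 3.78 to 68.4 in A2780 OlaR, and TFAP2A rose there from 3.62 to 35.3. The LIM homeobox genes ISL1 and LHX2 fell from 35.8 to 2.01 and from 12.8 to 1.08 in A2780 OlaR. Except for CREB1 in A2780, these changes had a limma adjusted p under the threshold of 0.05.

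Of 42 measured trophoblast products, 17 were tested in C13*, where 14 were higher and 3 lower in C13* shCEBPB, with a median log2 fold change of 1.57 against -0.07 over all tested genes. Genes such as PSG1, PSG4 and PEG10 passed the filter through C13* shCEBPB alone, and CDX2 and PGF through C13* shCON alone. The filter fixed the direction of such genes, so these counts and this median are only a description. In A2780 OlaR 6 of 12 rose and 6 fell, and the median log2 fold change was -0.08 against -0.12. S100P, a calcium-binding protein of placenta and carcinomas, rose from 6.36 ± 1.59 to 209 ± 74.9 FPKM in C13* shCEBPB (log2 fold change 4.77, limma adjusted p = 3.49e-13). PSG4, a pregnancy-specific glycoprotein of a family of near-identical genes whose reads can be split, rose from 0.116 to 11.5 FPKM, and PEG10, an imprinted gene of placenta, rose from 0.158 to 10.1 FPKM. The list's fallers in C13* were CDX2, at 1.98 FPKM in C13* shCON and listed at 0 in every C13* shCEBPB library, HSD17B1, from 26.4 to 12.7 FPKM, and PGF, from 1.83 to 0.496. In A2780 OlaR, S100P rose from 0.390 to 26.3 FPKM, and ADAM12 and CDX2 rose from near 0 to 2.90 and 2.11, while TFPI2, INHA and PSG9 fell from 32.0 to 5.16, from 2.86 to 0.322 and from 2.04 to 0.0802 FPKM. Of the 5 markers that define trophoblast, CSH1 was listed at 0 in every library, and GCM1 and ERVW-1 had group means of at most 0.0660 and 0.156 FPKM. CYP19A1 had means of 0.209 FPKM in C13* shCON and 0.195 in A2780 OlaR, against 0.0103 in C13* shCEBPB and 0 in A2780. PSG1, of the same family as PSG4, had a mean of 3.29 FPKM in C13* shCEBPB and at most 0.195 in the other groups. The summed level of the 5 markers lay between 2.31 and 4.85 FPKM in C13* shCEBPB libraries, against 0.123 to 0.711 in all other libraries. In C13* shCEBPB this sum was mostly PSG1, and CYP19A1 was lower there than in C13* shCON.

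Genes of phosphate, pyrophosphate and mineralisation split evenly, with 6 of 13 higher and 6 lower in C13* shCEBPB and 6 of 14 in each direction in A2780 OlaR. BMP2, a bone morphogenetic protein, rose from 3.44 ± 0.374 to 72.0 ± 11.7 FPKM in C13* shCEBPB (log2 fold change 4.03, limma adjusted p = 1.26e-17). PHOSPHO1, a phosphatase of mineralising cells that works alongside ALPL in bone, rose from 0.486 to 4.15 FPKM, and ANKH, which moves pyrophosphate out of cells, from 8.91 to 32.9. RUNX2, the transcription factor of osteoblasts, went the other way from ALPL and fell from 4.37 FPKM to 0.0109 in C13* shCEBPB. The phosphate carrier SLC20A2 fell from 22.6 to 3.48 FPKM, and NT5E, a GPI-anchored nucleotidase, from 15.9 to 2.58. In A2780 OlaR RUNX2 rose from 0.0780 to 3.61 FPKM, BMP2 from 0.0293 to 2.21 and the phosphate carrier SLC20A1 from 36.7 to 69.8. SPP1 fell there from 11.5 to 0.0920 FPKM, PHOSPHO1 from 3.43 to 0.726 and ENPP1, which makes pyrophosphate, from 3.10 to 1.54. RUNX2 was above 1 FPKM in the 2 groups with ALPL at 0, and not in those with ALPL above 0. The groups with ALPL at 0, C13* shCON and A2780 OlaR, were alike in most genes, and a link between RUNX2 and ALPL was not tested. Of the other osteoblast markers IBSP was listed at 0 in every library, and SP7 and BGLAP had group means of at most 0.554 and 0.527 FPKM.

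The GPI anchor genes, whose products build and attach the anchor that all alkaline phosphatases carry, were called in both directions. In C13* 11 of 28 were higher, 12 lower and 5 not called in C13* shCEBPB, and the summed level of 29 genes was 541 to 594 FPKM in C13* shCEBPB and 538 to 569 in C13* shCON libraries. PIGQ rose from 9.60 to 31.5 FPKM, DPM2 from 24.4 to 55.8 and PIGT from 44.9 to 89.7, while PGAP1 fell from 6.27 to 1.46, PIGU from 35.04 to 15.2 and PIGF from 10.2 to 4.25. In A2780 9 of 28 were higher and 16 lower in A2780 OlaR, led by PIGW and PIGU, which rose from 3.16 to 11.4 and from 15.02 to 40.1 FPKM, and by PIGC and PIGZ, which fell from 75.2 to 17.4 and from 7.13 to 1.38. The summed level was 572 to 599 FPKM in A2780 OlaR and 724 to 749 in A2780 libraries. The summed anchor genes thus overlapped between the C13* groups and not between the A2780 groups.

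The brush border and germ cell lists held few tested genes. Of 17 brush border genes 4 were tested in C13*. ANPEP, an aminopeptidase, rose from 0.0278 to 12.4 FPKM in C13* shCEBPB and KLF4 from 10.2 to 75.7, while CDX2 and KLF5 fell, KLF5 from 69.7 to 29.3. In A2780 OlaR KLF5, CDX2 and KLF4 rose, KLF5 from 27.4 to 90.0 FPKM. The defining markers VIL1, LCT, SI, APOA4 and FABP2 summed to at most 0.402 FPKM in any library, so ALPI at 165 FPKM stood without them. Of 19 germ cell genes 8 were tested in C13* (5 higher, 3 lower) and 7 in A2780 (4 higher, 3 lower). PODXL rose from 19.4 to 75.2 FPKM and PRDM1 from 0.728 to 5.32 in C13* shCEBPB, and PDPN fell from 4.20 to 0.00209. SOX17 was listed at 0 in C13* shCON and had 1.83 FPKM in C13* shCEBPB. In A2780 OlaR UTF1 and SALL4 fell from 8.56 and 19.6 FPKM to 0 and 7.38, while PDPN, TFAP2C and PODXL rose from 0, 2.04 and 4.34 to 5.42, 35.7 and 13.8. POU5F1 reached 2.61 FPKM in C13* shCEBPB, DPPA3 was listed at 0 in every library, and KIT and NANOG had group means of at most 0.0103 and 0.128 FPKM.

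**Figure D4:**
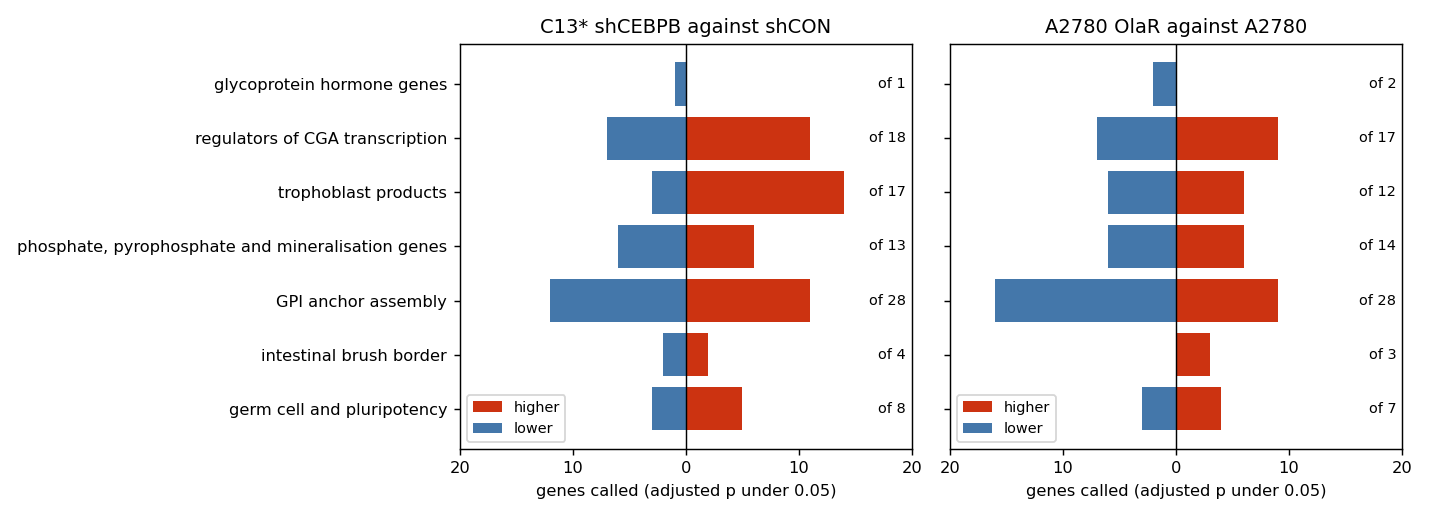
Number of genes of 7 of the lists (ovarian carcinoma markers left out) called higher (red, right) or lower (blue, left) at a limma adjusted p under 0.05, in C13* shCEBPB against shCON and in A2780 OlaR against A2780, with the number tested at the right edge. In C13* 14 of 17 tested trophoblast products (42 measured) were higher, while the GPI anchor genes were 11 higher and 12 lower of 28. Some of these trophoblast products, such as PSG4 and PEG10, passed the filter through shCEBPB alone, which fixed their direction. Of all genes tested in C13*, 38.9% were higher and 45.7% lower in shCEBPB.

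Of 8 markers of ovarian carcinoma, 3 of 6 tested were higher and 3 lower in C13* shCEBPB, and 5 of 5 tested were higher in A2780 OlaR. EPCAM, an epithelial adhesion molecule, had means of 111 FPKM in C13* shCON and 116 in A2780 OlaR, against 0.567 in C13* shCEBPB and 1.20 in A2780. PAX8 was at 6.10 and 6.002 FPKM in C13* shCON and A2780 OlaR, and at 0.536 and 0.555 in C13* shCEBPB and A2780. KRT7, a keratin, was at 8.02 in C13* shCON, 583 in C13* shCEBPB, 0.0626 in A2780 and 9.66 in A2780 OlaR. MSLN, mesothelin, was at 30.7, 154, 3.15 and 25.8 FPKM in the same groups, and like KRT7 it was highest in C13* shCEBPB and lowest in A2780. SOX17 and ESR1 had group means of at most 1.83 and 2.38 FPKM. WT1 and MUC16 had means under 1 FPKM in every group. The markers thus did not order the groups in 1 way, and the part of what differs between the groups in the levels of CGA and ALPL was not tested.

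The neighbours of the members show how far the levels were shared along the chromosome. Over all tested genes, 38.9% were higher and 45.7% lower in C13* shCEBPB, and 40.1% and 49.7% in A2780 OlaR. Within 500 kb of the phosphatase cluster 13 other genes were measured. In C13* 4 of 7 tested were higher and 2 lower in C13* shCEBPB, and in A2780 4 of 8 were higher and 4 lower in A2780 OlaR. DIS3L2, an exonuclease gene and the nearest measured gene before ALPP, was at 12.2 FPKM in C13* shCON, 10.9 in C13* shCEBPB, 11.2 in A2780 and 13.8 in A2780 OlaR. On the other side ECEL1 was at 0.374 FPKM in C13* shCEBPB and listed at 0 in the other groups. EFHD1 rose from 0.253 ± 0.0800 to 18.7 ± 1.13 FPKM in C13* shCEBPB (log2 fold change 3.98). It fell from 18.5 ± 1.19 in A2780 to 0.489 in A2780 OlaR (log2 fold change -3.71). NGEF was called in the same directions, with 3.90, 10.3, 19.6 and 4.30 FPKM in C13* shCON, C13* shCEBPB, A2780 and A2780 OlaR. By mean FPKM the order of the groups in NGEF was that of ALPPL2 and not that of ALPP. C2orf82 was higher in C13* shCEBPB than in C13* shCON, at 1.80 against 0.507 FPKM, and NPPC, a natriuretic peptide gene, fell from 2.43 in A2780 to 0.0571 in A2780 OlaR.

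**Figure D5:**
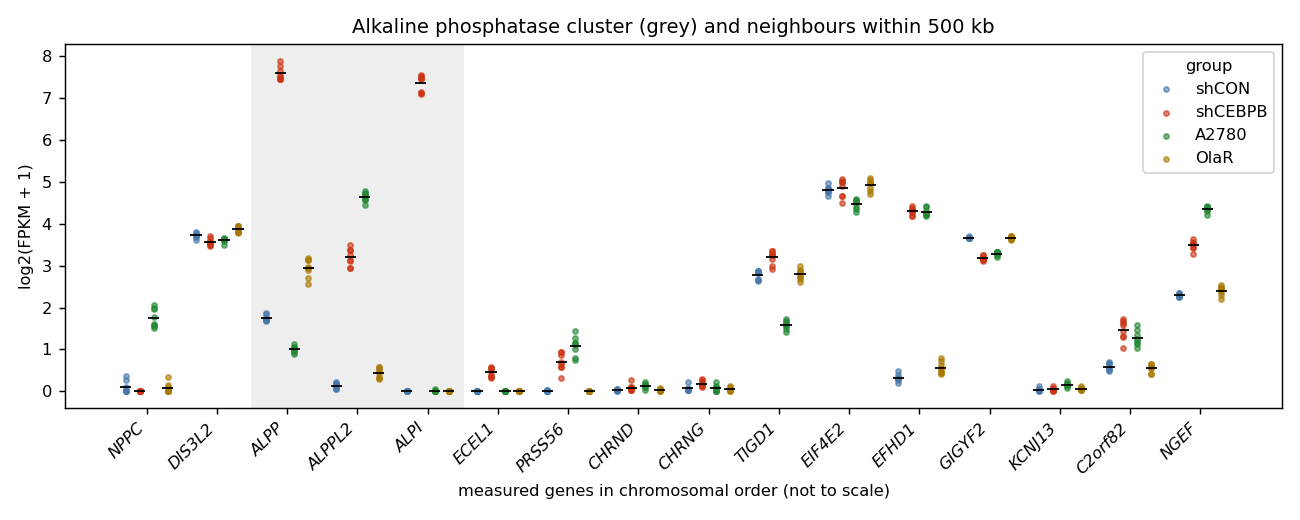
ALPP, ALPPL2 and ALPI (grey) and the 13 other measured genes within 500 kb in their order along the chromosome, not to scale, as log2(FPKM + 1), with each point a library, black lines the group means and colors the groups (shCON and shCEBPB are C13* libraries, OlaR is A2780 OlaR). DIS3L2 has group means of 10.9 to 13.8 FPKM beside a wide range in the cluster, and EFHD1 is high in shCEBPB and A2780.

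CGA lay among few measured genes. HTR1E, next to it, was listed at 0 in every library, and ZNF292 on the other side fell from 5.86 to 2.54 FPKM in C13* shCEBPB (log2 fold change -0.96, limma adjusted p = 1.89e-09) and from 9.39 to 5.62 in A2780 OlaR (log2 fold change -0.66, limma adjusted p = 2.24e-07). Of 5 tested neighbours within 500 kb, 1 was higher and 3 lower in C13* shCEBPB, and 1 was higher and 4 lower in A2780 OlaR. Around ALPL, 5 of 9 tested neighbours were higher and 3 lower in C13* shCEBPB, and 7 were higher and 1 lower in A2780 OlaR. Beside ALPL, NBPF3 fell from 6.24 to 1.33 FPKM in C13* shCEBPB and RAP1GAP, a regulator of Rap GTPases, rose from 2.98 to 14.3, as did ECE1, the endothelin-converting enzyme, from 7.67 to 44.02. The pancreatic elastase genes CELA3A and CELA3B, near-identical copies whose reads can be split, had the reverse of the ALPL pattern. They were at 6.06 and 5.21 FPKM in C13* shCON and 5.48 and 4.43 in A2780 OlaR, and at or near 0 in C13* shCEBPB and A2780. Around CGB5 and CGB8, 4 of 33 tested neighbours were higher and 24 lower in C13* shCEBPB. Their median log2 fold change was -0.68, and -0.40 within 1000 kb, against -0.07 over all tested genes. CGB7, which shares sequence with both genes, is among these neighbours. In A2780 OlaR 13 of 43 were higher and 24 lower, with a median of -0.52 against -0.12. RASIP1 and NTF4, a neurotrophin gene beside CGB7, fell from 39.8 to 0.548 and from 19.04 to 1.23 FPKM in C13* shCEBPB, where RCN3 rose from 3.21 to 48.8. In A2780 OlaR HSD17B14 and GFY fell from 63.2 to 0.157 and from 46.6 to 0.189 FPKM, and RASIP1 rose from 0.938 to 32.6.

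The genes most like each member were sought over all 31 libraries by the mean absolute difference in log2(FPKM + 1), as a description. CGA and ALPL were each the gene nearest to the other, at 0.36, but with a constant of 0.1 in place of 1 the nearest genes were PRSS21 for CGA (0.71) and OLFM1 for ALPL (0.50), each ahead of the other member at 0.72. MUC13, an epithelial mucin, and WISP2, a secreted CCN protein, followed for CGA at 0.39 each, with 229 and 457 FPKM in C13* shCEBPB. OLFM1 followed for ALPL at 0.46, and it was at 176 FPKM in C13* shCEBPB, 1.07 in A2780 and 0 in A2780 OlaR. ALPI was nearest to PRSS21 and SLC43A3, at 0.08 each. ALPP was nearest to PRSS23, a serine protease, at 0.51, with 148 FPKM in C13* shCEBPB, 5.27 in A2780 OlaR, 3.48 in C13* shCON and 2.81 in A2780, the same order of groups as ALPP. MCAM and the complement gene C3 followed at 0.64 and 0.66. The gene nearest to ALPPL2 had lost its symbol to a date, and TUBB4A and HMGN5 followed at 0.26 and 0.28, with 25.7 and 26.0 FPKM in A2780 and 5.97 and 9.70 in C13* shCEBPB. No other phosphatase was among the 3 genes nearest to ALPP, ALPPL2 or ALPI.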

How the data were processed

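Total RNA was extracted with TRIzol, and mRNA libraries were sequenced as paired 150-base reads. Per the labels and the study's methods, the authors mapped reads to hg38 with TopHat and counted them with HTSeq. The authors deposited FPKM, 1 table for all 31 libraries, and these were used here. The tool, annotation and strand setting behind the FPKM are not given in the sources used here, and depth is known only in relative terms, from steps of low values (94.9% of 6754 values within 0.05 of a whole step). The table held 19225 rows, 4 of which repeated a symbol and were left out, and 23 symbols had turned into dates.

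FPKM sums were 417556 to 454578. Groups came from the labels. The members, lists and tests were chosen with earlier results of these data known. Genes with at least 1 FPKM in 7 of 15 (C13*) or 8 of 16 (A2780) libraries were tested with limma 3.58.1 (trend) in R 4.3.3 on log2(FPKM + 1), each comparison on its own groups, and two-sided p-values were adjusted by Benjamini-Hochberg with a threshold of 0.05. All glycoprotein hormone genes, the 3 called genes that rose and fell most in each other list, the nearest and most changed neighbours and the 3 genes most like each member were named, apart from 1 list gene that is not reported here. The test was checked on simulated data. Positions were taken from GENCODE 44 (98.8% of genes placed by symbol) and promoters from RefSeq with Python 3.11.15.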

Additional observations from a re-analysis of the deposited data

Results flagged for a closer look

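In 25 of 257 groups of 7 or 8 libraries (73 named genes), the highest or lowest library stood farther from the others than Dixon's 95% critical value, which chance alone does in about 1 in 20 groups. Among the members this was ALPI in A2780, with 0.0436 FPKM in replicate 1 and 0 in the other libraries. Many of the others were low levels in a single library. These were CGB1, LHCGR, TSHR and PDPN in C13* shCEBPB with 0.0327, 0.0333, 0.0630 and 0.0167 FPKM, LHB, GPHA2, GPHB5 and TSHR in A2780 OlaR with 0.330, 0.0334, 0.105 and 0.0559 FPKM, and ESR1 and ADAM12 in A2780 with 0.0153 and 0.00839 FPKM. CGB3 had a high value of 0.509 FPKM in C13* shCON replicate 2.

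In A2780 the high libraries had 151 FPKM of CREM, 0.135 of BMP2, 34.6 of DPM2, 0.111 of ANPEP, 29.2 of KLF5, 0.190 of PRDM1 and 3.51 of INHA, and the low ones 0.306 of PAX8 and 17.5 of PIGH. In C13* shCON the low libraries had 2.68 FPKM of BMP2, 7.995 of KLF4 and 0.574 of PRDM1, and SLC20A1 had a high value of 93.0. BMP2 and KLF4 were low in the same library, replicate 6. The causes were not tested.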

How the results depend on the processing

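The direction of each tested member was the same under every alternative in which it was fitted (other pseudocounts and filters, rescaling, quantile normalization, 1 fit of all groups, library ranges, without C13* shCON replicate 1). Asking also for a fold change of at least 2 left 3539 of 10166 called genes and 47 of 80 related genes in C13*, and 4446 of 11190 and 39 of 75 in A2780, by construction. Of the related genes named, 10 calls were lost, of which 8 with that fold threshold and the others in DND1, with quantile normalization (-0.13) and in libraries 4 to 8 (-0.08). Same-numbered libraries did not deviate together (mean r of -0.15 over 7 pairs in C13*, with 2 pairs over 0.1, and -0.23 over 8 pairs in A2780, with 1 pair over 0.1), so the numbers were not taken to pair them. With the replicate number fitted as a block, there were 9885 called genes and 80 related genes in C13*, and 10960 and 74 in A2780. With the number in the library code as the block, there were 9833 and 80 in C13*. The median log2 fold change of all tested genes in A2780 was -0.12, and -0.18 and -0.03 after rescaling to a common sum and quantile normalization, where related genes were 39 higher and 37 lower in place of 35 and 40. With a constant of 0.1, 1 of the 3 genes most like ALPPL2 stayed, and CGA and ALPL were no longer nearest to each other. FPKM give no counts, so neither an interval nor a detection limit is given for members listed at 0.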
